A study of Drosophila melanogaster with 13 samples.

Results

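The mitochondrial genome of Drosophila melanogaster supplied 38 of the 17753 genes in the count table, chosen as all genes whose FlyBase symbol starts with mt:. They are 13 protein genes, 2 ribosomal RNA (rRNA) genes, 22 transfer RNA (tRNA) genes and mt:ori, the control region. RNA was read in larvae of instar 3 from MN1-Ib, a glutamatergic motoneuron that can be found by its place in the ventral nerve cord. In every group MN1-Ib-GAL4 drove UAS-mCD8:GFP, a membrane-bound GFP, so the controls carry the driver and the reporter too. The Notch+Shal RNAi group (3 libraries) also carried RNA interference constructs against Notch and Shal. The Shal RNAi group (3 libraries) carried the construct against Shal, a gene of an A-type potassium channel, and the Notch RNAi group (4 libraries) the construct against Notch, a cell surface receptor. The control group (3 libraries) carried GFP alone. Each library is a pool of 4 to 8 cells from 1 or 2 larvae, taken up by patch pipette, and since no label says whether pools shared larvae, p-values speak of the spread between pools alone. Libraries are named by group and replicate number.

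Mitochondria keep a small circular genome. Both of its strands are transcribed into long precursors, from which the tRNAs are cut out and the mRNAs and rRNAs are released. Its mRNAs encode core subunits of the respiratory chain complexes I, III and IV and of ATP synthase, also called complex V. All other subunits, and the polymerase, nucleases and RNA-binding proteins that make and keep these RNAs, come from nuclear genes. Mitochondrial mRNAs carry short poly(A) tails, so they are copied by methods that start from poly(A).

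Total counts ran from 3783100 to 9319116 per library, and levels are counts scaled to the library's total, in CPM. The RNA interference targets did not separate the groups. Shal stood at 77.2, 37.8 and 20.5 CPM in Notch+Shal RNAi 1 to 3, 53.3, 112 and 135 CPM in Shal RNAi 1 to 3, 50.9, 62.1, 54.5 and 20.8 CPM in Notch RNAi 1 to 4 and 5.098, 94.97 and 45.4 CPM in Control 1 to 3. N, the gene of Notch, stood at 16.3, 20.4 and 329 CPM, 9.004, 29.9 and 1.29 CPM, 23.6, 19.4, 20.9 and 294 CPM and 31.5, 28.8 and 229 CPM in the same libraries. Neither target was lower throughout the libraries labelled for it, so every group below is a group of labels. VGlut, which loads glutamate into synaptic vesicles and marks motoneurons, stood at 401 to 2841 CPM. The 6 glial markers summed to 16.3 to 757 CPM, most of it Gs2, a glutamine synthetase, at 16.3 to 755 CPM, while alrm, of astrocytes, had no count. The 4 markers of cholinergic and GABA neurons summed to 0.148 to 62.7 CPM, with VGAT, the vesicular GABA transporter, at up to 62.7 CPM and ChAT, of cholinergic neurons, at up to 0.244 CPM. Transcripts of fat body, muscle and hemocytes (blood cells) were present and are given below beside the mitochondrial share.

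Of the 38 genes, 33 had at least 1 count and 14 had counts in all 13 libraries. These 14 are 12 of the protein genes and both rRNA genes, and the mRNAs made up 98.1% of all mitochondrial counts. The complex IV mRNAs held 53.3%, the single complex III mRNA 23.6%, the 2 complex V mRNAs 16.2% and the 7 complex I mRNAs 4.97%. Both rRNAs together held 1.88%. The 22 tRNAs had 348 counts in all, 0.00908% of the mitochondrial counts, and 195 of these were in Shal RNAi. Per library, tRNAs took 0.00856 to 0.0163% of mitochondrial counts in Shal RNAi (mean 0.0117%) and 0.00900 to 0.0146% in control (mean 0.0110%), so the ranges overlapped. The means of the other groups were lower, at 0.00638% (Notch+Shal RNAi) and 0.00424% (Notch RNAi). The tRNAs with most counts were mt:tRNA:Leu-TAG (97), mt:tRNA:Cys-GCA (66) and mt:tRNA:Ile-GAT (62). The 5 genes without a count were the tRNAs of lysine, phenylalanine, histidine, threonine and proline, and mt:ori had 20 counts.

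Per length, the control libraries showed a steep order of levels. mt:CoII, a complex IV subunit (bases 3083 to 3767 of the mitochondrial genome, plus strand, BDGP6.54), stood highest at 7006 ± 614 CPM per kb of exon (SD, n = 3). mt:Cyt-b, the complex III subunit, followed at 5172 ± 469.7, mt:ATPase6 at 5078 ± 568, mt:CoIII at 4757 ± 808 and mt:CoI at 3842 ± 256 CPM per kb. The neighbours in this order, from mt:Cyt-b to mt:CoIII, lay within each other's SD. mt:ATPase8, which encodes a small ATP synthase subunit, stood lower at 1088 ± 176 CPM per kb. The complex I mRNAs mt:ND1 and mt:ND4 stood at 290.2 ± 30.4 and 249 ± 33.2 CPM per kb, beside mt:lrRNA, the large ribosomal RNA, at 225 ± 52.4 CPM per kb. mt:ND3 at 130.4 ± 97.6, mt:srRNA, the small ribosomal RNA, at 57.2 ± 31.6, mt:ND6 at 51.3 ± 23.6, mt:ND5 at 45.7 ± 19.7 and mt:ND2 at 33.7 ± 15.7 CPM per kb formed a low group whose SDs overlap. The SD of mt:ND3 also overlapped those of mt:lrRNA and mt:ND4. mt:ND4L was last at 0.772 ± 0.705 CPM per kb, and Control 2 and Notch+Shal RNAi 1 had no count of it, below a floor of 3 counts, which equals 0.322 and 0.445 CPM there. The floor covers counting error only.

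**Figure D1:**
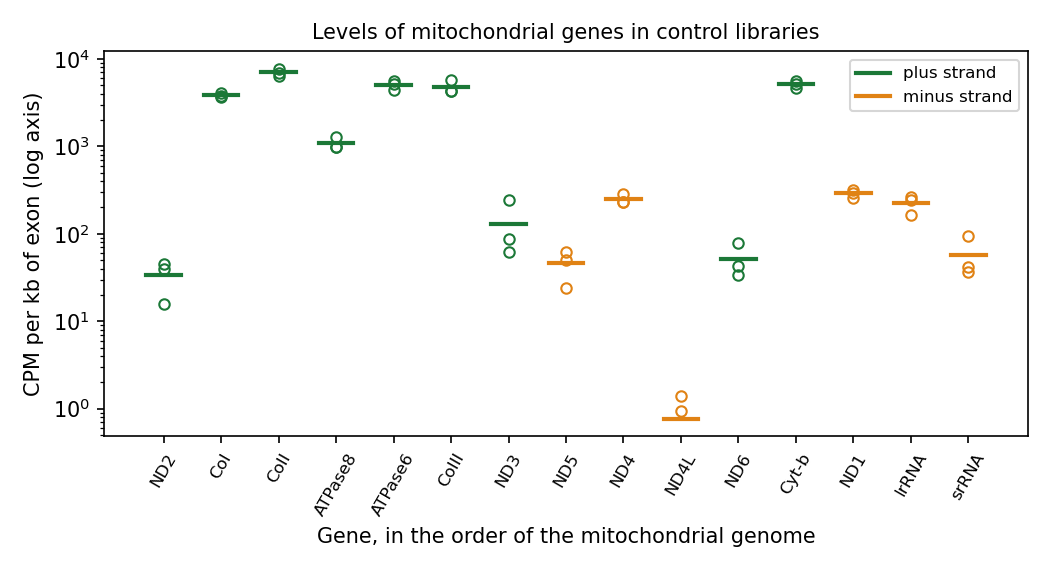
Level of the 13 mitochondrial protein genes and 2 rRNA genes in Control 1 to 3, in CPM per kb of exon on a log axis, with genes along the x axis in genome order. Circles are libraries (Control 2 has no count of mt:ND4L and shows no circle there), bars are means and colours give the coding strand; the complex IV, complex III and ATP synthase genes stand above the complex I genes, which include all 4 minus strand mRNAs.

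Strand and complex cannot be told apart in this order for most genes. The 9 plus strand mRNAs held 93.6% and the 4 minus strand mRNAs, mt:ND5, mt:ND4, mt:ND4L and mt:ND1, 4.46% of mitochondrial counts. All 4 of the minus strand encode complex I subunits, and the plus strand carries every mRNA of complexes III, IV and V. The 3 complex I mRNAs of the plus strand, mt:ND2, mt:ND3 and mt:ND6, stood in the low group above, beside mt:ND5 of the minus strand. By mean they lay below mt:ND1 and mt:ND4, though the SDs of mt:ND3 and mt:ND4 overlapped. Whether the counting used strand is not given in the sources used here, so reads of overlapping or antisense transcripts cannot be assigned to a strand.

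Mitochondrial genes together took 2.26, 0.893 and 4.69% of all counts in Notch+Shal RNAi 1 to 3, 13.5, 5.36 and 11.5% in Shal RNAi 1 to 3, 4.54, 5.83, 3.37 and 2.19% in Notch RNAi 1 to 4 and 2.38, 2.54 and 2.596% in Control 1 to 3. All 3 Shal RNAi libraries lay above all control and all Notch+Shal RNAi libraries, Shal RNAi 2 lay below Notch RNAi 2, and the control libraries differed little among themselves. The group means were 2.61 ± 1.92% in Notch+Shal RNAi, 10.1 ± 4.25% in Shal RNAi, 3.98 ± 1.56% in Notch RNAi (SD, n = 4) and 2.51 ± 0.110% in control (SD, n = 3 in the other groups). An exact permutation test of the F statistic over all 1201200 ways to give the libraries to the groups gave p = 0.0152, and an adjusted p of 0.0610 over the 4 measures tested, which misses 0.05. Without Shal RNAi 2 the adjusted p was 0.0247, with the p values of the other 3 measures kept from all 13 libraries. With any other single library left out it was 0.0532 to 0.0892. Without Shal RNAi 1 and 3 the group is Shal RNAi 2 alone, at 5.36%. Between pairs of groups, Shal RNAi exceeded control by 7.62 percentage points, with a 2-sided exact permutation p of 0.1, the smallest that 3 against 3 libraries allow (adjusted p = 0.267 over 16 pair tests). Notch+Shal RNAi lay below Shal RNAi by the same exact p, with a difference of -7.52 points. The difference was 1.47 points for Notch RNAi against control (exact permutation p = 0.229) and 0.105 points for Notch+Shal RNAi against control (exact permutation p = 1). A share cannot tell more mitochondrial RNA in a pool from less RNA of other kinds, and in pools fewer cells and less RNA per cell cannot be told apart.

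**Figure D2:**
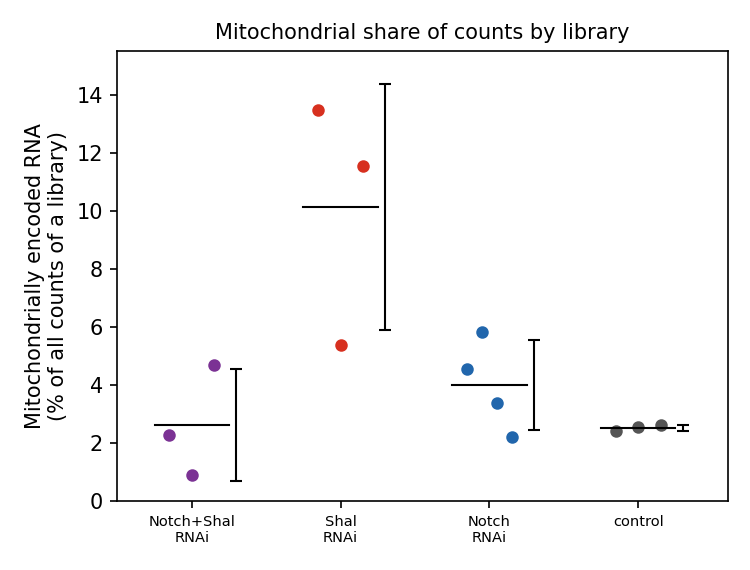
Counts of mitochondrial genes as a percent of all counts, by library (points) and group (x axis), with group means as lines and SD as error bars. The Shal RNAi libraries sit at 5.36 to 13.5% and the control libraries at 2.38 to 2.60%.

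Other features of the libraries were set beside this share. The 5 motoneuron and neuron markers summed to 3344, 6300.1 and 1687 CPM in Notch+Shal RNAi 1 to 3, 5951, 4474 and 6970.0 CPM in Shal RNAi 1 to 3, 3657, 4648, 3489 and 1676 CPM in Notch RNAi 1 to 4 and 3077, 3610.3 and 1913 CPM in Control 1 to 3. Every Shal RNAi library lay above every control library in this sum, and Notch+Shal RNAi 2, with the lowest mitochondrial share of all, had the second highest. The glial sum was 97.8, 28.1 and 61.96 CPM in Notch+Shal RNAi 1 to 3, 203, 16.3 and 204 CPM in Shal RNAi 1 to 3, 39.8, 28.8, 69.8 and 757 CPM in Notch RNAi 1 to 4 and 257, 189.5 and 127 CPM in Control 1 to 3. It was lowest in Shal RNAi 2 and Notch+Shal RNAi 2 within their groups, as the share was, and 3 of its 6 genes were at 0 throughout Shal RNAi. Shal RNAi 1 and 3, the libraries with the highest shares, detected 7698 and 7364 genes and had edgeR TMM scaling factors of 0.569 and 0.621, while the factors of the other libraries were 0.936 to 1.41. Shal RNAi 2 detected 8212 genes and the control libraries 9010 to 9244. Notch RNAi 1 to 4 detected 7579, 7858, 8354 and 9839 genes, and the Notch+Shal RNAi libraries 8835 to 9272. Summed over all 6 hemocyte markers, levels were 282, 63.2 and 1748 CPM in Notch+Shal RNAi 1 to 3, 268, 21.1 and 249.8 CPM in Shal RNAi 1 to 3, 49.3 to 105 CPM in Notch RNAi and 92.97, 53.3 and 55.2 CPM in Control 1 to 3. Within Notch+Shal RNAi and within Shal RNAi the lowest hemocyte sum was in the library with the lowest mitochondrial share, while Notch+Shal RNAi 3 had the highest hemocyte sum of all and a share of 4.69%. Sums over 8 fat body markers were 15539.8, 1472 and 20332 CPM in Notch+Shal RNAi 1 to 3 and 11223, 9883 and 6220 CPM in Shal RNAi 1 to 3. They were 2108 to 9581 CPM in Notch RNAi and 9659, 16282 and 5378 CPM in Control 1 to 3. The 10 muscle markers summed to between 293 and 1485 CPM in Notch+Shal RNAi 1 to 3, 1571, 4317 and 874 CPM in Shal RNAi 1 to 3, between 619.9 and 3319 CPM in Notch RNAi and between 1041 and 3275 CPM in control. No listed hemocyte, fat body or muscle gene was at 0 throughout Shal RNAi. The part of these features in the mitochondrial share was not tested.

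The complex IV genes encode the catalytic core of cytochrome c oxidase, which passes electrons to oxygen. mt:CoI (FBgn0013674), the largest of them, had 6046, 2379 and 12209 CPM in Notch+Shal RNAi 1 to 3, 22956, 12595 and 17314 CPM in Shal RNAi 1 to 3, 11664, 15360.5, 9689 and 6599 CPM in Notch RNAi 1 to 4 and 5574, 6337 and 5795 CPM in Control 1 to 3. Every Shal RNAi and every Notch RNAi library lay above every control library, and Notch+Shal RNAi 3 lay just below the lowest Shal RNAi library. The mean in Shal RNAi was 2.99-fold that of control, the smallest such ratio among the 14 genes. mt:CoII (FBgn0013675) had 3889, 1491 and 8663 CPM in Notch+Shal RNAi 1 to 3, 24832, 8673 and 20829.6 CPM in Shal RNAi, 7945, 9116, 5432 and 3879 CPM in Notch RNAi and 4731, 4417 and 5250.4 CPM in control. Here Shal RNAi 2 and Notch+Shal RNAi 3 nearly met, and the Notch RNAi libraries stood on both sides of control. mt:CoIII (FBgn0013676) had 2721, 1023 and 5910.3 CPM in Notch+Shal RNAi 1 to 3, 19316, 6606 and 15703 CPM in Shal RNAi, 5377, 6742, 4551 and 2501 CPM in Notch RNAi and 3408, 3363 and 4489 CPM in control. The mean in Shal RNAi was 3.77-fold that of control for mt:CoII and 3.697-fold for mt:CoIII, and Shal RNAi stayed clear of control in both.

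mt:Cyt-b (FBgn0013678), the cytochrome b of complex III, was the gene with most counts of the 38. It had 5708, 2052 and 9641 CPM in Notch+Shal RNAi 1 to 3, 31016, 13546 and 27464 CPM in Shal RNAi 1 to 3, 10750.2, 14853, 7475 and 4788 CPM in Notch RNAi 1 to 4 and 5332, 6399 and 5911 CPM in Control 1 to 3. Shal RNAi 2 and Notch RNAi 2 crossed, while Shal RNAi stayed above all Notch+Shal RNAi and control libraries. Its mean in Shal RNAi was 4.08-fold that of control.

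The complex V genes mt:ATPase6 and mt:ATPase8 encode the membrane subunits of ATP synthase. mt:ATPase6 (FBgn0013672) had 3124, 1632 and 6422 CPM in Notch+Shal RNAi 1 to 3, 25421, 7973 and 20038 CPM in Shal RNAi 1 to 3, 5163, 9455, 5076 and 3086 CPM in Notch RNAi 1 to 4 and 3522, 3755 and 3006 CPM in Control 1 to 3. mt:ATPase8 (FBgn0013673) had 154, 69.05 and 291 CPM in Notch+Shal RNAi 1 to 3, 1466, 319 and 934 CPM in Shal RNAi, 204, 474, 211 and 160.0 CPM in Notch RNAi and 161, 209 and 159 CPM in control. In both genes every Shal RNAi library lay above every Notch+Shal RNAi and control library, and Notch RNAi 2 lay above Shal RNAi 2. The means in Shal RNAi were 5.196-fold and 5.14-fold those of control, for mt:ATPase6 and mt:ATPase8 in that order.

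Complex I is the entry point of electrons from NADH, and its mitochondrial genes encode membrane subunits. On the minus strand, mt:ND1 (FBgn0013679) had 177, 67.5 and 753 CPM in Notch+Shal RNAi 1 to 3, 3124, 1036 and 3186 CPM in Shal RNAi 1 to 3, 841, 933, 267 and 222 CPM in Notch RNAi 1 to 4 and 298, 242 and 278 CPM in Control 1 to 3. Shal RNAi was clear of the 3 other groups, Notch RNAi had a high and a low pair, and the control libraries lay close together. mt:ND4 (FBgn0262952) had 290.2, 111 and 1014 CPM in Notch+Shal RNAi 1 to 3, 3202, 896 and 3205 CPM in Shal RNAi, 902, 734, 431 and 279.7 CPM in Notch RNAi and 306, 309.9 and 385 CPM in control. Notch+Shal RNAi 3 and Notch RNAi 1 lay above Shal RNAi 2 in this gene, and no Shal RNAi library overlapped control. mt:ND5 (FBgn0013684) had 79.9, 23.2 and 342 CPM in Notch+Shal RNAi 1 to 3, 812, 822 and 1786 CPM in Shal RNAi, 693, 264, 48.4 and 47.4 CPM in Notch RNAi and 41.2, 87.1 and 107 CPM in control. The means in Shal RNAi were 14.52-fold (mt:ND5), 8.99-fold (mt:ND1) and 7.302-fold (mt:ND4) those of control. For mt:ND5 the ratio was the largest of the 14 genes, and Shal RNAi 2 was as high as Shal RNAi 1, unlike in the complex III, IV and V genes. mt:ND4L, the other minus strand gene, had at most 12 counts in a library and 42 in all.

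The complex I genes of the plus strand had the lowest mean CPM of the 12 protein genes with counts throughout. mt:ND6 (FBgn0013685) had 17.1, 4.96 and 61.2 CPM in Notch+Shal RNAi 1 to 3, 139, 207 and 667 CPM in Shal RNAi 1 to 3, 233, 24.6, 10.8 and 17.9 CPM in Notch RNAi 1 to 4 and 22.3, 17.6 and 40.97 CPM in Control 1 to 3. Notch RNAi 1 stood with the Shal RNAi libraries and the other Notch RNAi libraries with control. mt:ND2 (FBgn0013680) had 24.2, 2.87 and 53.5 CPM in Notch+Shal RNAi 1 to 3, 149.8, 83.6 and 374 CPM in Shal RNAi, 141, 42.98, 31.7 and 14.3 CPM in Notch RNAi and 40.5, 16.3 and 46.7 CPM in control. mt:ND3 (FBgn0013681) had 9.05, 5.404 and 46.4 CPM in Notch+Shal RNAi 1 to 3, 133, 50.5 and 301 CPM in Shal RNAi, 12.6, 14.1, 15.1 and 6.21 CPM in Notch RNAi and 30.9, 21.9 and 85.7 CPM in control. For mt:ND3 the Shal RNAi and control libraries overlapped. All 4 of its Notch RNAi values lay below all 3 control values, which held for no other of the 14 genes. The means in Shal RNAi were 12.5-fold (mt:ND6), 5.86-fold (mt:ND2) and 3.497-fold (mt:ND3) those of control.

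The rRNAs form the 2 subunits of the mitochondrial ribosome. mt:lrRNA (FBgn0013686) had 321, 61.99 and 1378 CPM in Notch+Shal RNAi 1 to 3, 2003, 725 and 3192 CPM in Shal RNAi 1 to 3, 1382, 234, 407 and 272 CPM in Notch RNAi 1 to 4 and 348, 218 and 326 CPM in Control 1 to 3. Notch+Shal RNAi 3 and Notch RNAi 1 lay above Shal RNAi 2, and Shal RNAi did not overlap control. mt:srRNA (FBgn0013688) had 14.69, 7.28 and 87.2 CPM in Notch+Shal RNAi 1 to 3, 329, 33.8 and 447 CPM in Shal RNAi, 66.01, 13.9, 17.97 and 25.6 CPM in Notch RNAi and 32.9, 28.4 and 73.5 CPM in control. Its level in Shal RNAi 2 lay within the control range, so the mean in Shal RNAi, 6.002-fold that of control, came from Shal RNAi 1 and 3. For mt:lrRNA that ratio was 6.63. The libraries were made from poly(A) RNA, so rRNA counts stand for the molecules that this method took up.

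**Figure D3:**
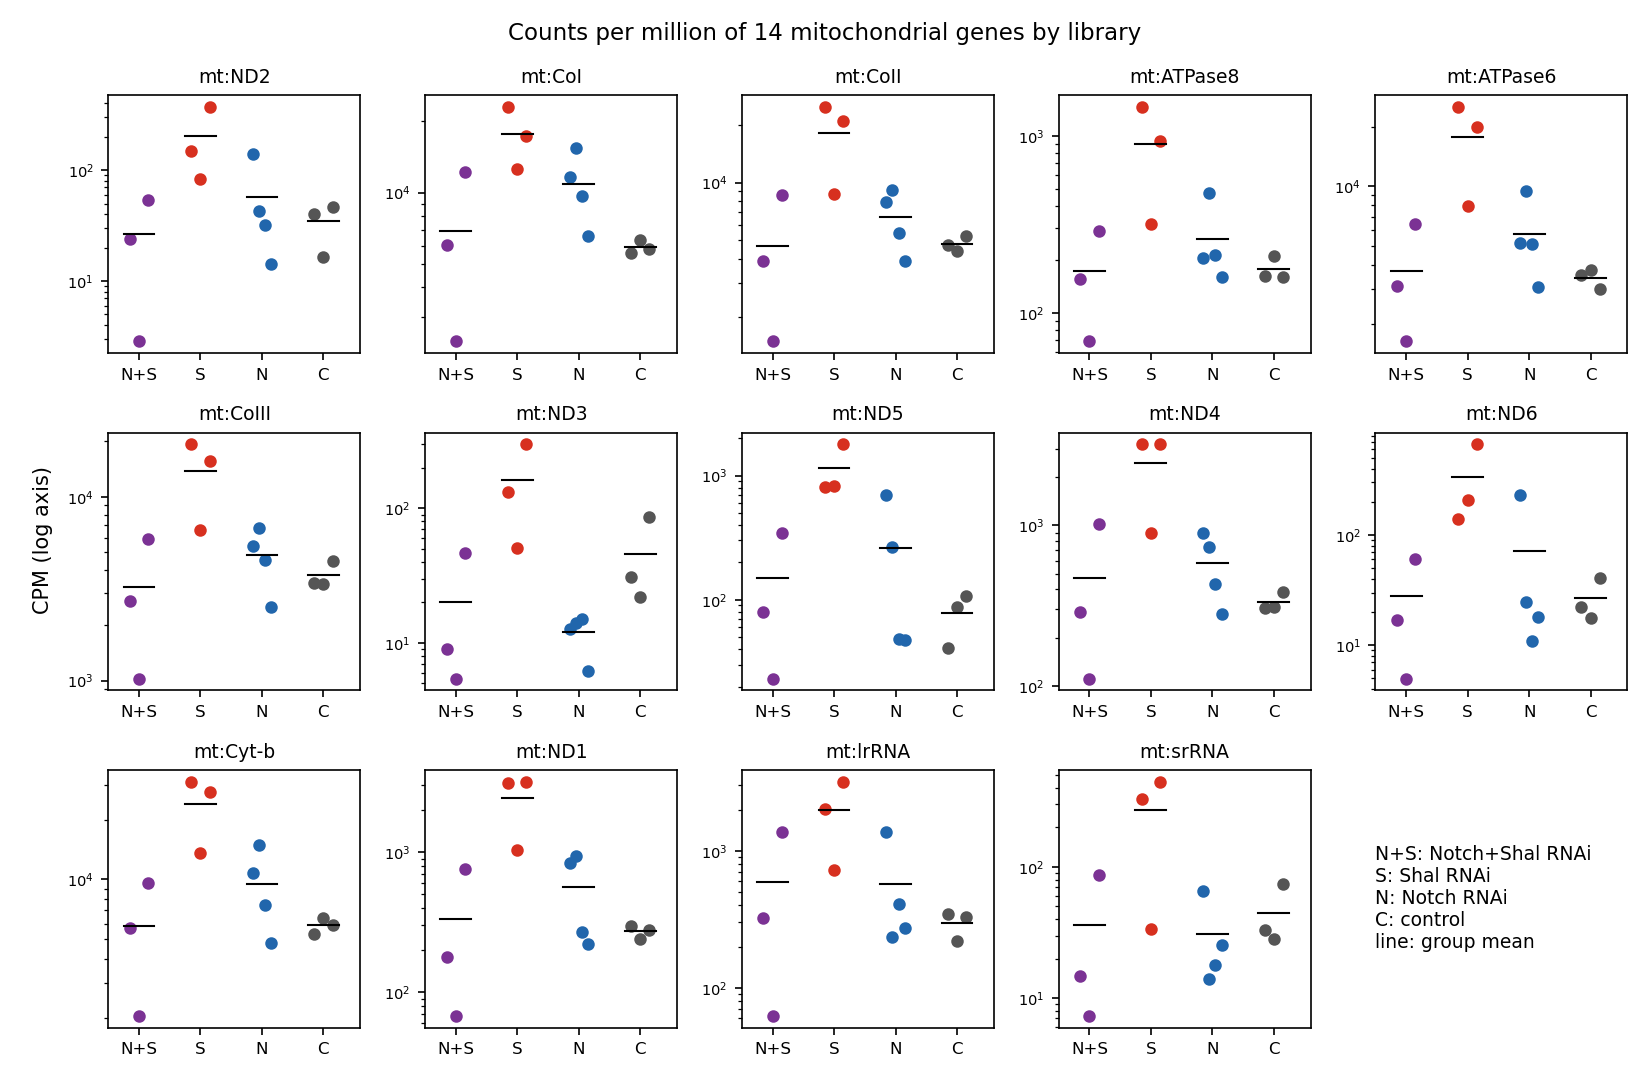
CPM of the 14 mitochondrial genes with counts in all libraries, 1 panel per gene in genome order, by group (x axis: N+S, Notch+Shal RNAi; S, Shal RNAi; N, Notch RNAi; C, control), on log axes that differ between panels. Points are libraries and lines are group means; Shal RNAi has the highest mean in every panel, and its points overlap those of control in mt:ND3 and mt:srRNA.

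For the test across genes, 17 of the 38 passed the low-count filter, the 14 above and the 3 tRNAs named, which had 54 of 97 (mt:tRNA:Leu-TAG), 32 of 66 (mt:tRNA:Cys-GCA) and 43 of 62 counts (mt:tRNA:Ile-GAT) in Shal RNAi. The filter asks for about 1.36 CPM in at least 3 libraries. mt:tRNA:Ile-GAT reached this in the 3 Shal RNAi libraries and in no other, mt:tRNA:Cys-GCA in 2 Shal RNAi libraries and 1 control library and mt:tRNA:Leu-TAG in 3 Shal RNAi and 2 Notch RNAi libraries, so their direction was set in part or in whole by the filter and they enter no count or median below. None of the 3 passed in any comparison. The 14 protein and rRNA genes reached it in all 13 libraries. In Shal RNAi against control all 14 log2 fold changes were positive and none passed edgeR's quasi-likelihood test at an adjusted p of 0.05 over 8908 genes, where 0.0% of all genes passed. The 14 genes had adjusted p values of 0.144 to 0.221. At an unadjusted p under 0.05, all 14 were higher, against 8.03% of all genes. DESeq2 called 13 of 14 on the same counts, against 3.47% of all genes, and limma voom called 0. The median log2 fold change over the 14 was 3.32, and -0.27 over all genes. By CPM, all Shal RNAi libraries lay above all control libraries in 12 of 14, against 3.38% of all genes.

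The sizes of single genes were not tested against each other. mt:ND5 had a log2 fold change of 4.66 (SE 1.11) in Shal RNAi against control, mt:ND6 4.46 (SE 1.13), mt:ND1 4.03 (SE 0.89) and mt:ND4 3.75 (SE 0.83), all of complex I. The ATP synthase genes had 3.23 (SE 0.71) for mt:ATPase6 and 3.24 (SE 0.77) for mt:ATPase8. mt:Cyt-b had 2.86 (SE 0.68), mt:CoII 2.77 (SE 0.700), mt:CoIII 2.75 (SE 0.71) and mt:CoI 2.38 (SE 0.65). The remaining values were 3.59 for mt:lrRNA, 3.53 for mt:srRNA, 3.402 for mt:ND2 and 2.704 for mt:ND3. The fit scales by TMM, which raises Shal RNAi 1 and 3 relative to CPM, so these values exceed the ratios of mean CPM above. With library totals alone as the scale the median over the 14 was 2.47, and over all genes -0.83. With TMMwsp scaling the medians were 3.64 over the 14 and -0.024 over all genes.

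The count of calls depended on 1 library. Without Shal RNAi 2, edgeR called all 14 in Shal RNAi against control, against 1.5% of all genes, and 8 of 14 in Notch+Shal RNAi against Shal RNAi, against 0.268% of all genes. Without Shal RNAi 1 and 3, with the single remaining library of the group taken to vary as the others do, the median over the 14 against control was 1.37, with 13 above 0, 3 at an unadjusted p under 0.05 and 0 called. In that fit mt:srRNA stood at -0.21.

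**Figure D4:**
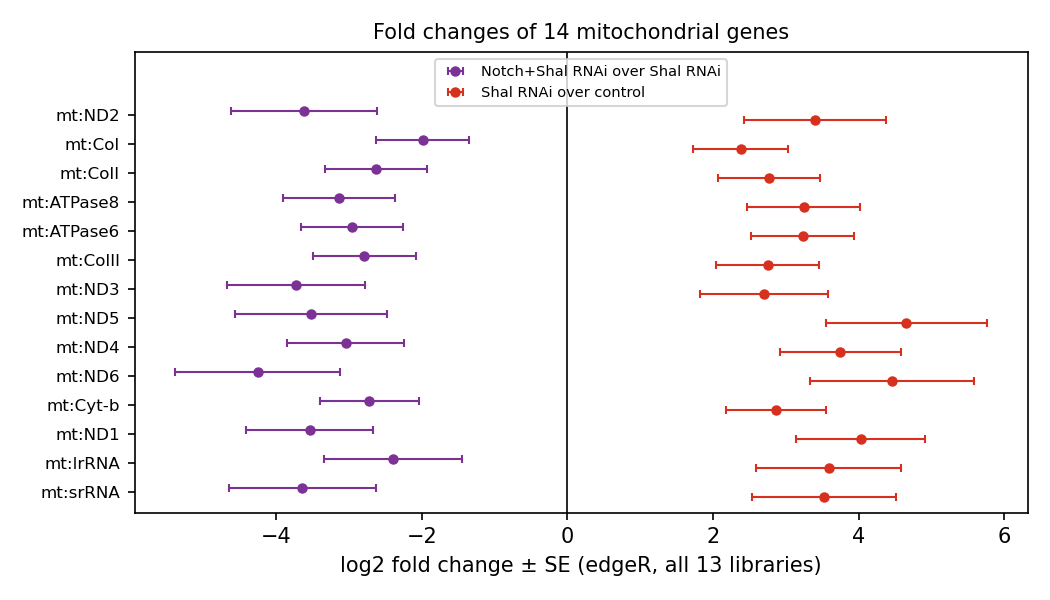
log2 fold changes of 14 mitochondrial genes (x axis, edgeR fit of all 13 libraries, error bars SE), in genome order from the top, for Notch+Shal RNAi over Shal RNAi and for Shal RNAi over control. Values lie below 0 in the first comparison and above 0 in the second, both use the same Shal RNAi libraries, and none passed an adjusted p of 0.05.

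Notch+Shal RNAi against Shal RNAi asks whether the construct against Notch changes the level found with the construct against Shal. All 14 log2 fold changes were negative, with a median of -3.09, against 0.38 over all genes. edgeR called 0 of 14, against 0.0% of all genes, and DESeq2 called 12, against 3.46% of all genes, while limma voom called 0. At an unadjusted p under 0.05, all 14 were lower, against 6.7% of all genes. All Notch+Shal RNAi libraries lay below all Shal RNAi libraries in 11 of 14, against 2.59% of all genes. mt:ND6 had -4.26 (SE 1.13), mt:ND3 -3.73 (SE 0.95) and mt:srRNA -3.64 (SE 1.01), and mt:CoI had the smallest change, -1.99 (SE 0.64). mt:ATPase6 had -2.96 (SE 0.698) and the lowest unadjusted p, 0.000253 (adjusted p = 0.208). This comparison and Shal RNAi against control share the Shal RNAi libraries, so their opposite signs are not separate evidence. Without Shal RNAi 1 and 3 its median was -1.09, and mt:srRNA stood at 0.060.

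Notch RNAi against control gave smaller values. Of the 14, 12 were above 0 and 2 below, with a median log2 fold change of 0.93, against 0.027 over all genes. edgeR, DESeq2 and limma voom called 0 of 14 each, and edgeR called 0.0% and DESeq2 0.359% of all genes. mt:ND5 was the single gene at an unadjusted p under 0.05, with 2.01 (SE 0.96) (edgeR adjusted p = 0.9995), against 4.32% of all genes. Its 4 libraries spanned 47.4 to 693 CPM, and the lowest 2 lay within the control range. mt:ND3 had -1.81 (SE 0.89). By CPM, all Notch RNAi libraries lay above control in 1 of 14, mt:CoI, against 1.17% of all genes, and below it in 1 of 14, mt:ND3, against 2.93% of all genes.

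In Notch+Shal RNAi against control, 10 of 14 were above 0 and 4 below, with a median of 0.17, against 0.11 over all genes. edgeR, DESeq2 and limma voom called 0 of 14, against 0.0% of all genes in edgeR and 0.269% in DESeq2. No gene of the 14 had an unadjusted p under 0.05 in edgeR, against 4.32% of all genes. The median rested on Notch+Shal RNAi 3: it was -0.77 without that library, where all 14 lay below 0, and 0.64 without Notch+Shal RNAi 2. It was -0.32 in limma voom, where 1 of 14 lay above 0, and -0.0064 with library totals as the scale.

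The interaction asks whether adding the construct against Shal had the same effect with and without the construct against Notch. It is the log2 difference of Notch+Shal RNAi over Notch RNAi minus that of Shal RNAi over control. All 14 values were negative, with a median of -3.702, against 0.398 over all genes. edgeR called 0 of 14, against 0.0% of all genes, limma voom called 0, and DESeq2 called 7, against 1.32% of all genes. At an unadjusted p under 0.05, 13 of 14 were below 0, against 4.77% of all genes. mt:ND6 had -5.96 (SE 1.51), mt:ND5 -5.53 (SE 1.42) and mt:ND1 -4.78 (SE 1.16), while mt:ND3 had -1.92 (SE 1.28). The 14 genes had adjusted p values from 0.451 upward. Without Shal RNAi 1 and 3 the median was -1.94, and mt:ND3 and mt:srRNA stood at 0.398 and 0.39.

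The make-up of the mitochondrial RNA pool was compared apart from its size. The complex I to complex IV mRNA ratio, from summed counts per summed kb, was 0.02296, 0.0214 and 0.0413 in Notch+Shal RNAi 1 to 3, 0.0548, 0.05401 and 0.08599 in Shal RNAi 1 to 3, 0.0549, 0.0313, 0.0199 and 0.02204 in Notch RNAi 1 to 4 and 0.0262, 0.0239 and 0.0295 in Control 1 to 3. All Shal RNAi libraries lay above all Notch+Shal RNAi and control libraries, and Shal RNAi 2, with the smallest mitochondrial share of its group, had a ratio close to that of Shal RNAi 1. Notch RNAi 1 reached the Shal RNAi range. The exact permutation test over the 4 groups gave p = 0.0496 and an adjusted p of 0.0892, which misses 0.05. Without Notch RNAi 1 the adjusted p was 0.0306, with the p values of the other measures kept from all libraries. With any other single library left out it was 0.0621 to 0.221. The same permutation test gave an adjusted p of 0.197 with the ratio taken from means of log2 CPM per kb. It gave 0.105 without the top gene of each complex. The log2 difference was 1.26 for Shal RNAi against control and -1.22 for Notch+Shal RNAi against Shal RNAi, each with an exact permutation p of 0.1, the smallest possible.

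The minus to plus strand mRNA ratio per kb, which shares the complex I genes of the minus strand with the ratio above, was 0.0405, 0.0374 and 0.0783 in Notch+Shal RNAi 1 to 3, 0.0914, 0.0884 and 0.127 in Shal RNAi 1 to 3, 0.0944, 0.0553, 0.03696 and 0.04197 in Notch RNAi 1 to 4 and 0.0454, 0.0418 and 0.0499 in Control 1 to 3. It kept the same separations, with an exact permutation p of 0.0669 over the 4 groups (adjusted p = 0.0892). The log2 difference of Shal RNAi against control was 1.14 (exact permutation p = 0.1). The rRNA to mRNA ratio by counts was 0.0151, 0.00782 and 0.0323 in Notch+Shal RNAi, 0.0176, 0.0144 and 0.0325 in Shal RNAi, 0.03295, 0.00427, 0.0128 and 0.0138 in Notch RNAi and 0.0162, 0.00981 and 0.0156 in control. Each group overlapped every other, with an exact permutation p of 0.785 (adjusted p = 0.785).

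As shares of the mitochondrial counts, mt:CoI took 26.8, 26.6 and 26.05% in Notch+Shal RNAi, 17.02, 23.5 and 14.996% in Shal RNAi, 25.7, 26.4, 28.8 and 30.1% in Notch RNAi and 23.4, 24.9 and 22.3% in control. Shal RNAi 1 and 3 had the lowest shares of the 13 libraries, and Shal RNAi 2 stood within the control range. mt:ND1 took 2.32, 1.93 and 2.76% in Shal RNAi against 1.25, 0.951 and 1.07% in control, without overlap. mt:Cyt-b held a steadier part, 20.6 to 25.5% over all 13 libraries.

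**Figure D5:**
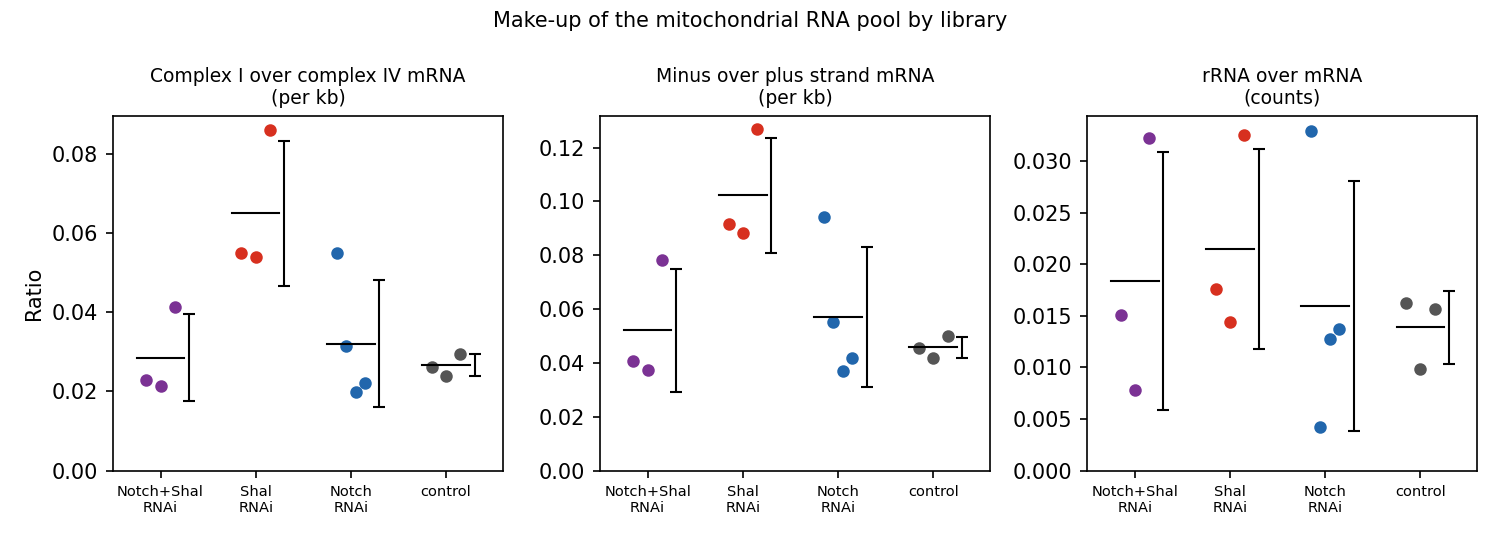
Ratios within the mitochondrial RNA pool by library (points) and group (x axis), with group means as lines and SD as error bars: complex I over complex IV mRNA and minus over plus strand mRNA, both per kb, and rRNA over mRNA by counts. Shal RNAi lies above control in the first 2 panels and overlaps it in the third.

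Genes that lie side by side on the genome were compared within libraries. mt:ATPase8 and mt:ATPase6 overlap by 7 bases on the plus strand, and mt:ATPase8 stood at 16.4 to 24.0% of mt:ATPase6 per kb over all 13 libraries, a 1.46-fold range, while mt:ATPase6 itself ranged 15.6-fold in CPM. mt:ND4L and mt:ND4 overlap by 1 base on the minus strand, yet mt:ND4L stood at 0 to 1.13% of mt:ND4 per kb. mt:ND6 lies 3 bases before mt:Cyt-b on the same strand and stood at 0.648, 0.524 and 1.37% of it per kb in Notch+Shal RNAi 1 to 3, 0.974, 3.31 and 5.26% in Shal RNAi 1 to 3, 4.69, 0.359, 0.314 and 0.81002% in Notch RNAi 1 to 4 and 0.905, 0.596 and 1.501% in Control 1 to 3. This is a 16.7-fold range, and Shal RNAi 2 and 3 and Notch RNAi 1 stood apart from the other libraries. mt:srRNA stood at 7.44 to 38.0% of mt:lrRNA per kb, with the groups overlapping. How reads in an overlap were assigned is not given in the sources used here, and short genes such as mt:ATPase8 (162 bases) and mt:ND4L (291 bases) are counted from few fragment positions.

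Nuclear genes of oxidative phosphorylation were read from the same fit, 68 of 70 listed being tested. In Shal RNAi against control 44 were above 0 and 24 below, with a median log2 fold change of 0.43, against -0.27 over all genes, and none passed. At an unadjusted p under 0.05, 15 of 68 were higher, against 8.03% of all genes, and 0 lower, against 3.72% of all genes. By complex, 21 of 33 complex I genes, 2 of 4 complex II, 5 of 9 complex III, 8 of 9 complex IV and 8 of 13 complex V genes lay above 0. In Notch+Shal RNAi against Shal RNAi 16 were above 0 and 52 below, with a median of -0.63, against 0.38 over all genes. Both medians are smaller in size than those of the mitochondrially encoded genes. In Notch RNAi against control 9 nuclear genes were above 0 and 59 below, with a median of -0.32, against 0.027 over all genes. The 14 mitochondrially encoded genes had a median of 0.93 there. Summed over the list, levels were 30698, 24500 and 31094 CPM in Notch+Shal RNAi 1 to 3, 33113, 39821 and 41858 CPM in Shal RNAi 1 to 3, 20973 to 31993 CPM in Notch RNAi and 27459.8, 44218 and 30108 CPM in Control 1 to 3. In CPM the Shal RNAi sums lay within the control range. In nuclear CPM, scaled to nuclear counts only, Shal RNAi 3 stood at 47322, above the control sums of 28131 to 45371. Shal RNAi 1 and 2, at 38277 and 42075, stayed within them. Single complexes differed in CPM. Complex III summed to 8403, 3974 and 9496 CPM in Shal RNAi 1 to 3, against 2661 to 4398 CPM in control. Complex V summed to 6538, 20623 and 10041 CPM, against 13068 to 21440 CPM in control. Shal RNAi 1 and 3 also lay above control in complexes I and IV and below it in complex II. In nuclear CPM the complex II sum of Shal RNAi 3, 524, lay within the control range of 510 to 1154. Shal RNAi 2 lay within the control range in every complex on both scales.

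The lowest p value in this list was that of UQCR-11, a small subunit of complex III. It had 639.9, 191 and 1386 CPM in Notch+Shal RNAi 1 to 3, 4576, 1085 and 3903 CPM in Shal RNAi 1 to 3, 909, 852, 866 and 474 CPM in Notch RNAi 1 to 4 and 753, 733 and 809 CPM in Control 1 to 3. Its log2 fold change in Shal RNAi against control was 2.94 (SE 0.75) (edgeR adjusted p = 0.168), and that of UQCR-6.4, another small complex III subunit, 3.09 (SE 0.797) (adjusted p = 0.168). The lowest p values among genes below 0 were those of UQCR-C2, a core subunit of complex III, at -1.85 (SE 1.22) (adjusted p = 0.541), and ATPsyngamma, of the ATP synthase rotor, at -0.94 (SE 0.64) (adjusted p = 0.551). Subunits of 1 complex thus stood on both sides of 0, and none passed. Without Shal RNAi 1 and 3, ATPsyngamma stood at 0.094.

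Nuclear genes that transcribe the mitochondrial genome or process and bind its RNAs lay on both sides of 0. Of 17 tested of 20 listed, 10 were above 0 and 7 below in Shal RNAi against control, with a median of 0.13. Of 5 tested of 6 listed for genome maintenance, 1 was above 0 and 4 below, with a median of -1.68. The median over all genes was -0.27. None of either list was called. The maintenance list summed to 30.6, 83.7 and 37.4 CPM in Notch+Shal RNAi 1 to 3, 11.1, 39.8 and 14.4 CPM in Shal RNAi 1 to 3, 19.1, 29.5, 29.6 and 66.03 CPM in Notch RNAi 1 to 4 and 72.4, 79.5 and 71.6 CPM in Control 1 to 3. Every Shal RNAi and every Notch RNAi library lay below every control library in this sum. By CPM, the same held in Shal RNAi for 1501 of all 8908 genes tested, and in Notch RNAi for 261 of them. SLIRP2, a relative of the mammalian SLIRP protein that binds mitochondrial mRNAs, had 2.24 (SE 0.83) (adjusted p = 0.293) and mldr 1.98 (SE 1.58) (adjusted p = 0.607). Lon, a mitochondrial matrix protease, had -1.74 (SE 1.08) (adjusted p = 0.521) and CG31643 -3.21 (SE 1.76) (adjusted p = 0.478). Levels of mldr were low, at 0, 4.17 and 5.91 CPM in Shal RNAi 1 to 3 and 0, 2.79 and 0.950 CPM in Control 1 to 3. CG31643 had 3.92, 1.25 and 0 CPM in Shal RNAi 1 to 3 and 35.6, 26.9 and 0 CPM in Control 1 to 3. Both lists together summed to 204.8 to 603 CPM in Shal RNAi and 460.0 to 546 CPM in control.

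Among 4975 nuclear genes with a mean of at least 20 CPM, 5 followed the mitochondrial to nuclear count ratio most closely over the 13 libraries by Spearman's rho. They were CG40045 (0.967), UQCR-11 (0.956), Lar, a receptor tyrosine phosphatase of axons (0.929), CG31126 (0.923) and Nubpl (0.912), whose mammalian relative takes part in complex I assembly. In nuclear CPM, scaled to nuclear counts only, CG40045 stood at 782, 425 and 1287 in Notch+Shal RNAi 1 to 3, 3535, 1693 and 2406 in Shal RNAi 1 to 3, 1967, 2027, 1296 and 530.1 in Notch RNAi 1 to 4 and 1014, 964 and 1233 in Control 1 to 3. The points share depth and library composition, the genes were picked as the highest of many, and Shal RNAi 1 and 3 stand apart. Without these 2 libraries Pearson's r was 0.794 for UQCR-11 and 0.911 for CG40045, against 0.973 and 0.934 over all 13.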

How the data were processed

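RNA was measured in 13 libraries of poly(A) RNA that, per the labels' protocols, went through template switching and PCR amplification before sequencing of both fragment ends; no molecular identifier is described there. The authors deposited raw read counts per gene. The submitters' processing notes name STAR 2.7.0e, R 3.6.1, limma 3.40.6, edgeR 3.26.7 and the build BDGP6. The sources used here do not give the roles of these tools, the strand setting or what was done with reads that match several places. Copies of mitochondrial sequence in the nuclear genome could therefore share reads, which was not tested. Symbols, positions and exon lengths came from BDGP6.54, in which 17626 of 17753 gene IDs were found. No mitochondrial sequence was used here.

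The genes examined and all lists were chosen with earlier results of these data known. All 38 mt: genes are accounted for, values per library are given for protein and rRNA genes with a mean of at least 20 CPM, the tRNAs with most counts are named, each nuclear list is named by its 2 genes with the lowest p per direction, and the 5 nuclear genes most like the mitochondrial ratio are named. One listed name, LRPPRC2, had no match. edgeR 4.0.16 in R 4.3.3 was fitted to all 13 libraries (TMM, minimum count 10, minimum total 15, robust quasi-likelihood, 2-sided, Benjamini-Hochberg over 8908 genes). Shares and ratios were tested by exact permutation (SciPy 1.17.1), which for 3 against 4 libraries can reach p = 0.0286 and for 3 against 3 only 0.1. Alternatives were RLE and TMMwsp factors, nuclear scale, library totals, no filter, DESeq2 1.42.0, limma voom 3.58.1, compared groups only, left-out libraries and a replicate block. After the data were seen, 3 tested tRNAs were left out of counts and medians, and leaving out Shal RNAi 1 and 3 together and edgeR's older quasi-likelihood dispersions were added. Deviations of same-numbered libraries from their group means correlated at -0.166 to 0.235 over 18 pairs, with a median of 0.070 and 5 above 0.1. Over 45 pairs with other numbers they correlated at -0.288 to 0.346, with a median of -0.011 and 6 above 0.1. Numbers were not taken as pairs in the main fit, and no label says what they mark.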

Additional observations from a re-analysis of the deposited data

Results flagged for a closer look

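Of 18 groups of 4 values examined (the Notch RNAi group), 3 held a library far from the others. All 18 come from the same 4 libraries and are not separate. The rule was applied only to groups of 4 values, so the groups of 3 libraries were not examined. The genes were read in CPM without logs, so no rate expected by chance is given. mt:lrRNA stood at 1382 CPM in Notch RNAi 1, against 234 to 407 CPM in the other Notch RNAi libraries. mt:ND6 stood at 233 CPM in Notch RNAi 1, against 10.8 to 24.6 CPM in the others. mt:ATPase8 stood at 473.5 CPM in Notch RNAi 2, against 160.0 to 211 CPM in the others.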

How the results depend on the processing

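The number of the 14 mitochondrial protein and rRNA genes called in edgeR was 0 in all 5 comparisons with all libraries. For Shal RNAi against control it was 7 without a low-count filter, against 26 of 13523 genes in all, and 13 in DESeq2, against 309 of 8908. It was 8 with only the compared groups fitted, against 26 of 7456 genes in all. With single libraries left out it was 0 to 14, the 14 without Shal RNAi 2, against 146 of 9708 genes there. For Notch+Shal RNAi against Shal RNAi it was 1 without the filter, against 4 of 13523 genes in all, and 12 in DESeq2, against 308 of 8908. With single libraries left out it was 0 to 8, the 8 without Shal RNAi 2, against 26 of 9708 genes there. For the interaction it was 7 in DESeq2, against 118 of 8908 genes in all, and 2 with the replicate block, against 9 of 8908. The cause of these differences was not tested, and the block changed no other count of calls among the 14. The numbers were not taken as pairs in the main fit, as described for the processing. With single libraries left out, medians against control ran from 3.03 to 3.87 in Shal RNAi, 0.54 to 1.1999 in Notch RNAi and -0.77 to 0.64 in Notch+Shal RNAi; they ran from -4.32 to -2.63 for Notch+Shal RNAi against Shal RNAi and -4.93 to -3.27 for the interaction. The adjusted p over 4 groups ran from 0.0247 to 0.0892 for the mitochondrial share, 0.0306 to 0.221 for complex I to IV, 0.0504 to 0.262 for the strands and 0.398 to 0.952 for rRNA. For each, only that measure's p was taken anew, and those of the other measures were kept from all libraries. The kept values cap the share at 0.0892. Without Shal RNAi 1 and 3 together, medians were -1.94 for the interaction, -1.09 for Notch+Shal RNAi against Shal RNAi and 1.37 for Shal RNAi against control. There mt:srRNA changed sign to -0.21 against control, 0.060 for Notch+Shal RNAi against Shal RNAi and 0.39 in the interaction, as did mt:ND3 in the interaction (0.398) and ATPsyngamma against control (0.094). The tRNA mt:tRNA:Cys-GCA, with 2 counts in Shal RNAi 2, also changed sign there, to -1.05 (SE 4.95) against control, 0.82 (SE 5.16) for Notch+Shal RNAi against Shal RNAi and 2.29 (SE 5.91) in the interaction. Of the other alternative values of single mitochondrial genes, 756 kept their direction and side of the threshold and 72 passed it where the full fit did not. Most tRNAs are at counts too low to test, and poly(A) selection limits what tRNA and rRNA counts stand for.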
